A study of Homo sapiens with 2 samples.

Results

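Integrin subunits of epithelial cells were examined in HT-29, a human colorectal adenocarcinoma cell line, grown as spheroids or as monolayer. The set was chosen by name and holds 10 genes, ITGA2, ITGA3, ITGA5, ITGA6, ITGAV, ITGB1, ITGB4, ITGB5, ITGB6 and ITGB8. All but ITGB6 are among the 19775 genes that have a probe set of their own. Spheroids were formed from the monolayer cells in stem cell media (DMEM:F12 with fibroblast growth factor, epidermal growth factor and B27 supplement) on low-adhesion plates and were harvested on day 5. Monolayer cells were kept on tissue culture plates in DMEM/F-12 with 10% fetal bovine serum, and antibiotic-antimycotic was present in both cultures. No serum is listed for the stem cell media, so the loss of attachment to plastic, the added factors and the change of serum came together and cannot be told apart. One Affymetrix expression array was run per culture in the data analysed here, so each comparison sets 1 spheroid array against 1 monolayer array, with no replicate check, no test and no p-value.

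An integrin is a heterodimer of an alpha and a beta subunit that spans the plasma membrane. It binds the extracellular matrix outside the cell and, through talin, kindlin and other adaptors on the beta tail, the actin cytoskeleton inside it. In epithelial cells the beta1 subunit serves several alpha subunits, among them the collagen receptor alpha2, the laminin receptors alpha3 and alpha6 and the fibronectin receptor alpha5. The beta4 subunit pairs only with alpha6 and ties laminin to keratin filaments at hemidesmosomes. The alphaV subunit pairs with beta1, beta5, beta6 or beta8 and binds ligands with an RGD motif, which include fibronectin, vitronectin and latent TGF-beta.

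Of the 10 genes, 9 were measured. By the brightest probe set of each gene, the laminin-binding subunits had the lowest values relative to monolayer and the alphaV and beta8 subunits the highest. ITGA3 was 2.09-fold lower in spheroids, ITGB4 1.88-fold lower and ITGA6 1.79-fold lower. ITGB8 was 2.01-fold higher and ITGAV 1.29-fold higher. ITGB1, the common beta subunit, differed by 1.04-fold. ITGB6 has no probe set of its own. Its 4 probe sets are shared with the long non-coding RNA gene LINC02478. The highest signal among them on each array was 26.7 in spheroids and 7.09 in monolayer, below the level taken as measurable.

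A signal here is a MAS5 intensity on a linear scale, computed by the authors for each of 54675 probe sets. Signals under 62.7, the 50th percentile of both arrays, were set to that floor before log2 was taken, and the brightest probe set by mean log2 signal stood for its gene. A difference is the log2 signal of spheroid minus that of monolayer. Above the floor on 1 or both arrays were 13261 genes, whose median difference was -0.05, and 2-fold, the threshold in the study's methods, was used to call a gene. By that rule 2.53% of the measured genes were higher in spheroids and 3.14% lower. Between probe sets of the same gene the difference had an SD of 0.41 over 5506 genes, which is a measure of probe set scatter and holds no culture variation.

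The deposited arrays had the same trimmed mean, 499.9, so their likeness in scale is no separate check. Median signals were 64.4 on the spheroid array and 61.1 on the monolayer array. The 18 probe sets of the spiked hybridisation controls all gave lower signals in spheroids, with a mean log2 difference of -0.25. Among 12 colon epithelial markers 6 were measured on both arrays and 3 on a single array, and the list summed to 76155 in spheroids and 86222 in monolayer. On the log2 scale EPCAM was at a difference of 0.08 and CDH1 at 0.41, the keratins KRT8, KRT18 and KRT19 were at -0.33, -0.39 and -0.29, and KRT20 was 2.19-fold higher. CDX1, CDH17 and LGALS4 were under the floor on both arrays. Of 8 fibroblast markers 3 were above the floor on at least 1 array, COL1A1 with signals of 1972 in spheroids and 1370 in monolayer, and the list summed to 2315 in spheroids and 1615 in monolayer. COL3A1, DCN, LUM, PDGFRA and PDGFRB were under the floor on both arrays. The 4 smooth muscle markers summed to 373.3 in spheroids and 633.9 in monolayer, mostly ACTA2. DES was under the floor in spheroids and at least 2.04-fold lower, and CNN1 was under the floor on both arrays. PECAM1 was the only endothelial marker of 6 above it, and ITGB2 the only one of 5 leukocyte markers with a probe set. PTPRC, CDH5 and VWF were under the floor. The part of these markers in the integrin differences was not tested.

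To show the DNA at the start of genes that were higher and lower, windows from 250 bases before to 50 after a RefSeq start are given. They are for ITGB8 and ITGAV, the subunits that were higher, and for ITGA6, a laminin receptor subunit that was lower. ITGA3 and ITGB4, lower than ITGA6 by the brightest probe set, have no such window. The windows shown are from build GRCh38.p14, at chr7:20330650-20330949, chr2:186589806-186590105 and chr2:172427086-172427385, all on the plus strand. Capitals mark a GC box (GGGCGG on either strand).
ITGB8: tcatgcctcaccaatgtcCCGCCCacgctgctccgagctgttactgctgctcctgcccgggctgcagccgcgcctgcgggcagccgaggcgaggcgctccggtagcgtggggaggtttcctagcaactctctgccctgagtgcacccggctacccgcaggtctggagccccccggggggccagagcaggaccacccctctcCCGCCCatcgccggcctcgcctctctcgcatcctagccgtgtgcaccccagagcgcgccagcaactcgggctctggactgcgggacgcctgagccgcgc
ITGAV: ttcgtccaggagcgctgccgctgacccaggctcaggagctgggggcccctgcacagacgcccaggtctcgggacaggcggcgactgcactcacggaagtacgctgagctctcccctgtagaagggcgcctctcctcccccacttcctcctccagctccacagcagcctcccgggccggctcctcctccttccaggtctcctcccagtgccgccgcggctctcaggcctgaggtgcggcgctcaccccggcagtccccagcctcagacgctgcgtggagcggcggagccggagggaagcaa
ITGA6: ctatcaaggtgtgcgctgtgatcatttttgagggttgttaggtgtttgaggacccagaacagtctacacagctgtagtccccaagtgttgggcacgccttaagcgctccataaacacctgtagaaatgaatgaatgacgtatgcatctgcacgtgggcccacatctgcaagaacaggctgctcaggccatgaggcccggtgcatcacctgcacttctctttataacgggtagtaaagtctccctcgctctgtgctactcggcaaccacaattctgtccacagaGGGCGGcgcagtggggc
The ITGB8 window is 71.7% G or C and holds 28 CG dinucleotides, with GC boxes that start at -232 and -49 from the gene start. The ITGAV window is 70.7% G or C and holds 23 CG dinucleotides and no match to GGGCGG. The ITGA6 window is 53% G or C with 11 CG dinucleotides and a GC box at position 34. A second start of ITGA6 has a window with 72% G or C, 38 CG dinucleotides and GC boxes at -217, -106 and -55. A second start of ITGAV has one with 41.3% G or C, 1 CG dinucleotide and no GC box. A GC box was found in 9 of 13 windows of the 8 integrin genes with a RefSeq window and in 45.0% of all 35116 windows of that length. The 9 are not separate genes, since ITGB5 and ITGA6 each gave more than 1. The 2 ITGA6 windows overlap, and the box at 34 in the first is the box at -217 in the second. The AP-1 element TGANTCA, searched on both strands, was found in 1 of the 13, that of ITGA5 at -6, and in 7.71% of all windows. The CRE TGACGTCA was found in 0 of the 13 and in 1.85% of all. Such a match describes the sequence only, and the arrays did not measure promoters.

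The laminin-binding subunits are ITGA3, ITGA6 and ITGB4. ITGA3, whose product with beta1 is a receptor for laminin-332, had a signal of 255.6 in spheroids and 534.6 in monolayer by its only probe set, a log2 difference of -1.06. It was the only integrin subunit of the set past 2-fold in the lower direction, where 3.14% of all measured genes were, and 337 genes, or 2.54% of those measured, were lower still. ITGB4, the hemidesmosomal beta subunit, had signals of 528.9 in spheroids and 995.7 in monolayer, a difference of -0.91. ITGA6, its alpha partner, had 1974 in spheroids and 3525 in monolayer, a difference of -0.84. By these brightest probe sets the 2 partners of the hemidesmosome integrin lay 0.08 apart on the log2 scale, less than the SD between probe sets of a gene. By the median of probe sets they were further apart, ITGA6 at -0.61 and ITGB4 at -0.24. At a 1.5-fold threshold, again by the brightest probe set, ITGA3, ITGB4 and ITGA6 were the ones lower among the 9, where 11.7% of all measured genes were lower. ITGB8 was the only one higher, where 9.6% of all were.

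Other probe sets gave smaller values for ITGA6 and ITGB4. The second probe set of ITGA6 had 674.0 in spheroids and 878.1 in monolayer, a difference of -0.38 and in the same direction as the first. ITGB4 has 5 probe sets, and the other 4 were dim. One of them had 26.0 in spheroids, under the floor, and 99.7 in monolayer, at least 1.59-fold lower. Another had 74.6 in spheroids and 65.3 in monolayer, the next 80.8 in spheroids against 59.5, under the floor, in monolayer, and the last was under the floor on both arrays. With the median over probe sets above the floor, ITGB4 stood at -0.24 in place of -0.91, so the size of its difference rests on the brightest probe set. By that median ITGA5 at -0.48, ITGA2 at -0.27 and ITGB5 at -0.25 were lower than ITGB4. The order by ligand class thus depends on the choice of probe set, while ITGA3 and ITGA6 remained the lowest. GALK1, which overlaps ITGB4 in the RefSeq table, had signals of 58.9 in spheroids, under the floor, and 155.8 in monolayer by the brighter of its 2 probe sets. The part of GALK1 transcripts in the ITGB4 signals was not tested.

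**Figure D1:**
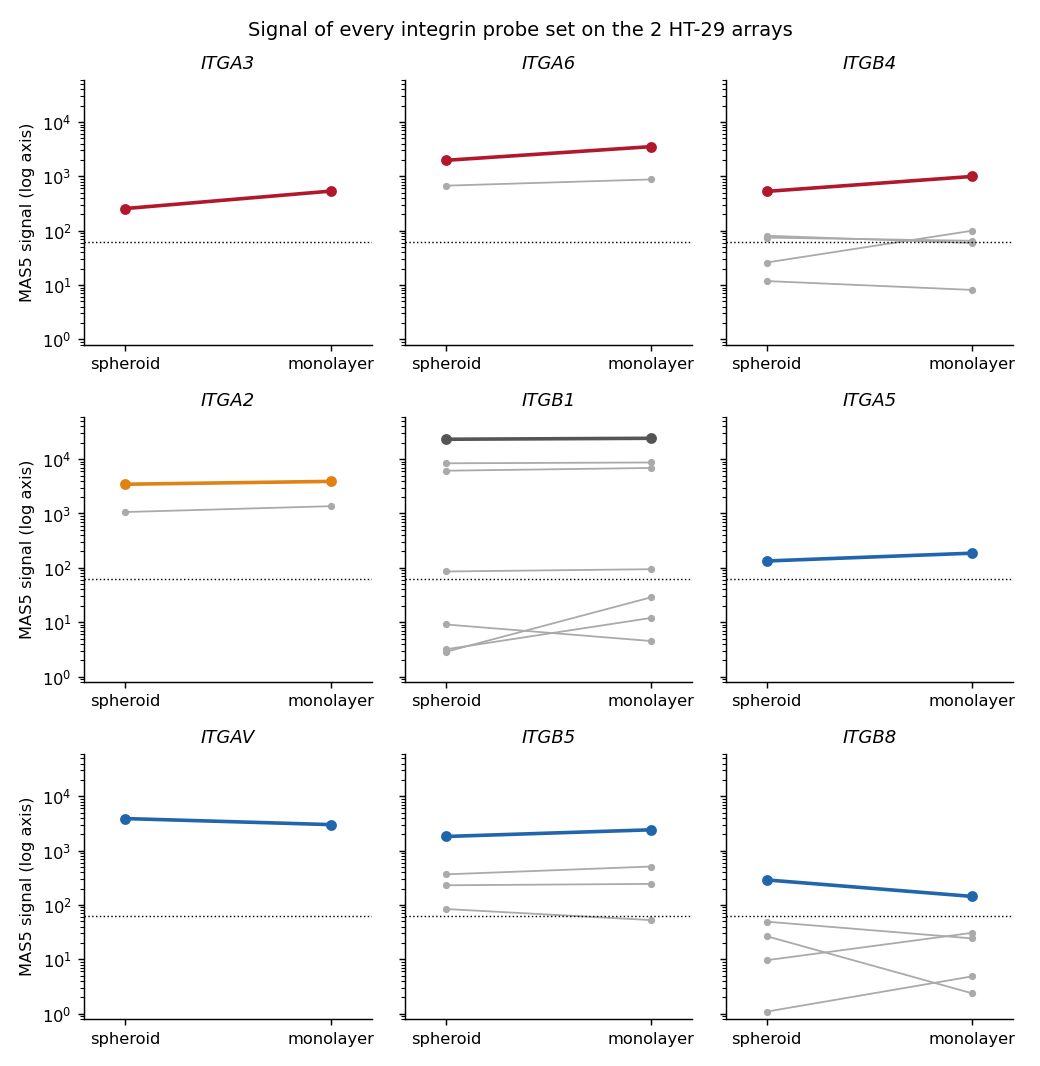
MAS5 signal (log axis) on the spheroid array (left) and the monolayer array (right) for every probe set of 9 integrin genes, with the brightest probe set of the gene in colour (red for laminin-binding subunits, orange for ITGA2, dark grey for ITGB1, blue for RGD-binding subunits and their partners), the other probe sets in light grey and the floor of 62.7 as a dotted line. The coloured lines of ITGA3, ITGA6 and ITGB4 climb toward monolayer, that of ITGB8 climbs toward spheroid, and that of ITGB1 is nearly flat at 23245 in spheroids and 24205 in monolayer.

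The collagen receptor subunit and the common beta subunit differed little. ITGA2, which with beta1 binds collagen, had 3455 in spheroids and 3897 in monolayer, a difference of -0.17. Its second probe set had 1064 in spheroids and 1362 in monolayer, a difference of -0.36. ITGB1 had 23245 in spheroids and 24205 in monolayer, a difference of -0.06. Measured on both arrays were 4 of its 7 probe sets, and they were all lower in spheroids, from -0.17 to -0.05. The remaining 3 were under the floor on both arrays. ITGB1 and ITGA2 were higher in spheroids, at 0.19 and 0.07, when the arrays were scaled to the spike-ins, and ITGB1 was at 0.03 after quantile normalization, so neither has a settled direction.

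The alpha subunits of fibronectin and other RGD ligands went apart. ITGA5, the alpha subunit of the classical fibronectin receptor, had 133.7 in spheroids and 186.0 in monolayer by its only probe set, a difference of -0.48. ITGAV had 3891 in spheroids and 3013 in monolayer, also by 1 probe set, a difference of 0.37. Relative to the median of all genes, ITGA5 was at -0.42 and ITGAV at 0.42. Neither reached 1.5-fold, and 17.9% of the measured genes were higher than ITGAV.

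Among the beta partners of alphaV, ITGB8 and ITGB5 had opposite directions. ITGB8, whose product with alphaV binds latent TGF-beta and is known to promote its activation, had 289.0 in spheroids and 143.8 in monolayer, a difference of 1.01. It was the only member past 2-fold in the higher direction, where 2.53% of all measured genes were, and 325 genes, or 2.45%, were higher still. The value lies at the threshold. ITGB8 was at 0.93 with the arrays scaled to their medians, at 0.95 after quantile normalization and at 0.99 with GAPDH as the scale, each just inside 2-fold. The other 4 probe sets of ITGB8 were under the floor on both arrays, the highest at 49.3 in spheroids and 24.2 in monolayer, so 1 probe set carries the result. ITGB8-AS1, a long non-coding RNA gene that overlaps ITGB8, had 38.8 in spheroids, under the floor, and 86.2 in monolayer, at least 1.38-fold lower.

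ITGB5, the beta subunit of a vitronectin receptor, had 1822 in spheroids and 2417 in monolayer, a difference of -0.41. The 3 probe sets measured on both arrays were all lower in spheroids, from -0.48 to -0.08. The remaining one had 84.2 in spheroids against 52.7, under the floor, in monolayer. Its name carries the suffix of probe sets that may hybridise to other transcripts as well, and so does that of the probe set at -0.48.

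**Figure D2:**
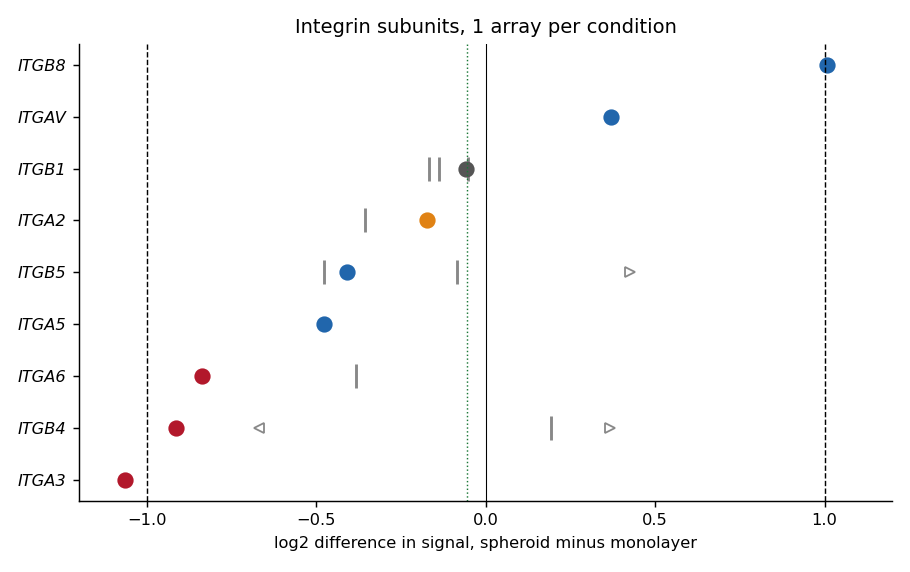
Log2 difference in signal, spheroid minus monolayer, for 9 integrin genes, ordered by value. A dot is the brightest probe set of a gene, a grey tick another that was measured on both arrays, an open triangle a bound from one measured on 1 array, dashed lines 2-fold and the dotted green line the median of all genes at -0.05. ITGA3, ITGB4 and ITGA6 lie at the bottom from -1.06 to -0.84 and ITGB8 at the top at 1.01.

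Over the 9 measured subunits the median difference was -0.41, against -0.05 over all measured genes, and 7 of 9 were under 0, against 54.9% of all genes, with 6 of 9 under 0 after quantile normalization and 5 of 9 when the arrays were scaled to the spike-ins. The spike-in scaling moves the median of all genes to 0.18 and the median of the 9 to -0.16. Relative to the median of all genes, the 9 were at -0.35 on the deposited scale and at -0.34 on the spike-in scale. The choice of probe set moved this value more, to -0.21 with the median of probe sets and to -0.42 with the most different probe set of each gene. By probe set, 14 of the 17 integrin probe sets measured on both arrays were lower in spheroids, against 50.3% of all such probe sets, and the median of the 17 was -0.17. Probe sets of a gene are not separate observations, and ITGB1 gave 4 of the 14 and ITGB5 gave 3. This count is on the deposited scale and was not repeated on the spike-in scale, where ITGB1 was higher in spheroids. Of 28 probe sets of the set's own genes, 3 more were above the floor on 1 array and 8 on neither.

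**Figure D3:**
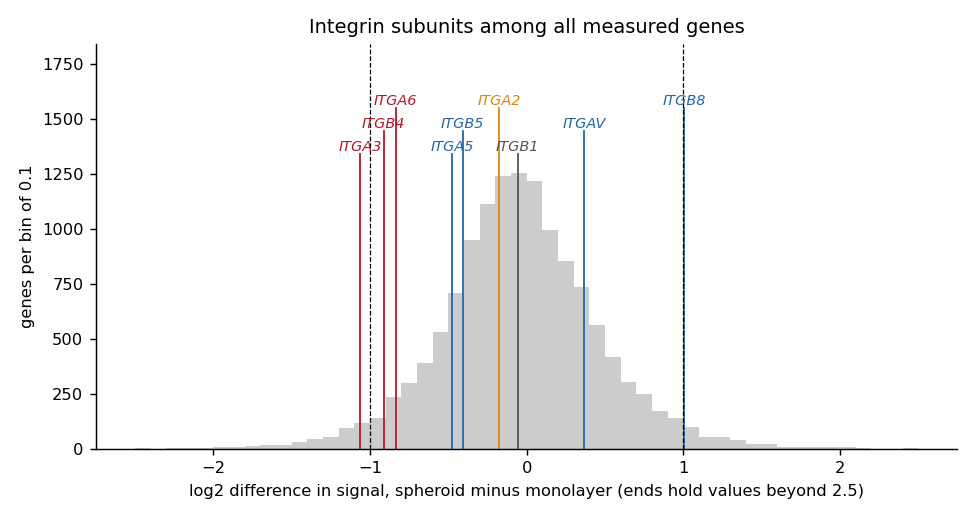
Number of genes (vertical axis) per bin of log2 difference, spheroid minus monolayer (horizontal axis), for all 13261 measured genes, with coloured lines at the 9 integrin genes, whose heights only separate the names, and dashed lines at 2-fold. ITGA3, ITGB4 and ITGA6 lie in the lower tail, ITGB8 in the upper tail, and ITGB1 near the peak.

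Differences between subunits on the same arrays do not depend on a common scale factor. ITGAV minus ITGB5, partners in the vitronectin receptor, was 0.78. ITGAV minus ITGB8 was -0.64, so the beta subunit had the larger difference. ITGA3 minus ITGB1 was -1.01 and ITGA6 minus ITGB1 was -0.78, while ITGA2 minus ITGB1 was -0.12. From ITGB8 to ITGA3, the outermost members, the distance was 2.07, a 4.20-fold change in the ratio of their signals. Of the 9 members, 5 had more than 1 probe set above the floor on 1 or both arrays, and the mRNA level does not tell how much of a subunit reached the cell surface.

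**Figure D4:**
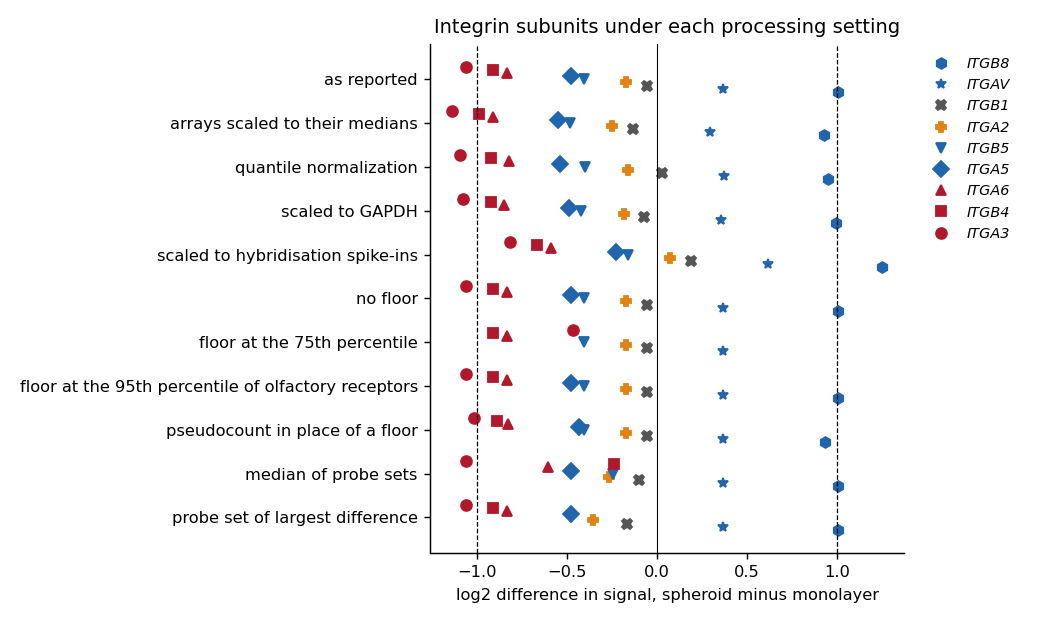
Log2 difference, spheroid minus monolayer, of the integrin genes (markers, in one colour per ligand class) under the reported setting and 10 alternatives (rows), with dashed lines at 2-fold. ITGA3, ITGB4, ITGA6, ITGA5 and ITGB5 stay left of 0 and ITGAV and ITGB8 right of it wherever they are measured. ITGB8 moves across the dashed line between 0.93 and 1.25.

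The lists that follow hold genes that act with these integrins, and each is to be read against the median of -0.05 and the 54.9% under 0 over all measured genes on the deposited scale. Of 17 other integrin genes, 8 were under the floor on both arrays, among them ITGA1, ITGA4 and ITGB7. The 9 above it had a median of -0.08, with 0 past 2-fold in either direction. ITGAE, the alpha subunit that binds E-cadherin, had 4795 in spheroids and 4431 in monolayer, a difference of 0.11. ITGAX, of myeloid integrins, had 77.6 in spheroids and 109.6 in monolayer, at -0.50, and ITGA9 was below the floor in spheroids, with 48.5, and had 88.4 in monolayer, at least 1.41-fold lower. ITGA7, a laminin receptor subunit of muscle, was at -0.35.

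Among 15 measured genes of matrix ligands and of latent TGF-beta, SPP1 passed 2-fold upward, as 2.53% of all measured genes did, and CCN2 downward, as 3.14% did, with a median of 0.06. SPP1, which encodes osteopontin, an RGD ligand of alphaV integrins, had 340.2 in spheroids and 130.6 in monolayer, 2.60-fold higher. CCN2, a matricellular protein that binds integrins, had 65.9 in spheroids and 225.7 in monolayer, 3.42-fold lower with a spheroid signal close to the floor. CCN1, its relative, was at 0.68. Fibronectin, FN1, had 927.7 in spheroids and 889.0 in monolayer, a difference of 0.06. Of the laminin chains, LAMC1 was at -0.88 with 1496 in spheroids and 2754 in monolayer by its brightest probe set, with another at -0.28. LAMB1 was at -0.27, with another probe set at -0.08, LAMB3 at 0.23, LAMB2 at 0.29 and LAMA5 at 0.32. TGFB1 was at -0.22, and LTBP1, which holds latent TGF-beta in the matrix, at -0.56.

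The adaptors at the integrin tails had 3 genes past 2-fold downward and 0 upward of 25 measured, with a median of -0.25, where 3.14% of all measured genes passed downward and 2.53% upward. TNS4, a short tensin without an actin-binding region, had 137.8 in spheroids and 580.9 in monolayer, 4.21-fold lower. ZYX, the focal adhesion protein zyxin, had 178.7 in spheroids and 522.8 in monolayer, 2.92-fold lower. PXN, the scaffold paxillin, had 574.6 in spheroids and 1533 in monolayer, 2.67-fold lower. These are proteins of focal adhesions. FERMT1, the epithelial kindlin that activates integrins, was at -0.78 by its brightest probe set, with another at 0.22. DAB2, an endocytic adaptor of beta tails, was at -0.60 with its 4 probe sets from -1.71 to -0.51, and ACTN1, an actin crosslinker, at -0.56. TLN1, talin, was at 0.10, VCL, vinculin, at -0.12, PTK2, focal adhesion kinase, at -0.07 with probe sets from -0.91 to 0.59, and ILK, the integrin-linked kinase, at -0.54.

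Of 8 measured hemidesmosome and tetraspanin partners, PLEC passed 2-fold upward, as did 2.53% of all measured genes, and CD82 downward, as did 3.14%, with a median of -0.13. PLEC, plectin, which links beta4 to keratin filaments, had 256.5 in spheroids and 122.4 in monolayer, 2.10-fold higher and so opposite in direction to ITGB4. CD82, a tetraspanin, was 2.29-fold lower by its brighter probe set, with 192.6 in spheroids and 441.8 in monolayer, but the other of its 2 probe sets was at 0.42. CD151, the tetraspanin that binds laminin receptors, was at 0.45, CD9 at -0.33 and TSPAN1 at -0.95. DST, whose epithelial form BPAG1e is in the hemidesmosome, had 6 probe sets from -0.79 to 1.30, the brightest at 0.04.

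In integrin maturation and trafficking, 12 of 15 measured genes were under 0, with a median of -0.15, and 1 was past 2-fold downward, where 3.14% of all measured genes were. PCSK7, a proprotein convertase, had 44.8 in spheroids, under the floor, and 260.3 in monolayer, at least 4.15-fold lower, while another probe set was at 0.51. FURIN, the convertase that cleaves several alpha subunits, was at -0.45, RAB4A, a GTPase of rapid recycling, at -0.46, and CALR, a chaperone of the endoplasmic reticulum, at -0.30. RAB21, which binds alpha tails, was at 0.02 by its brightest probe set, with 3 probe sets from 0.02 to 0.55.

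**Figure D5:**
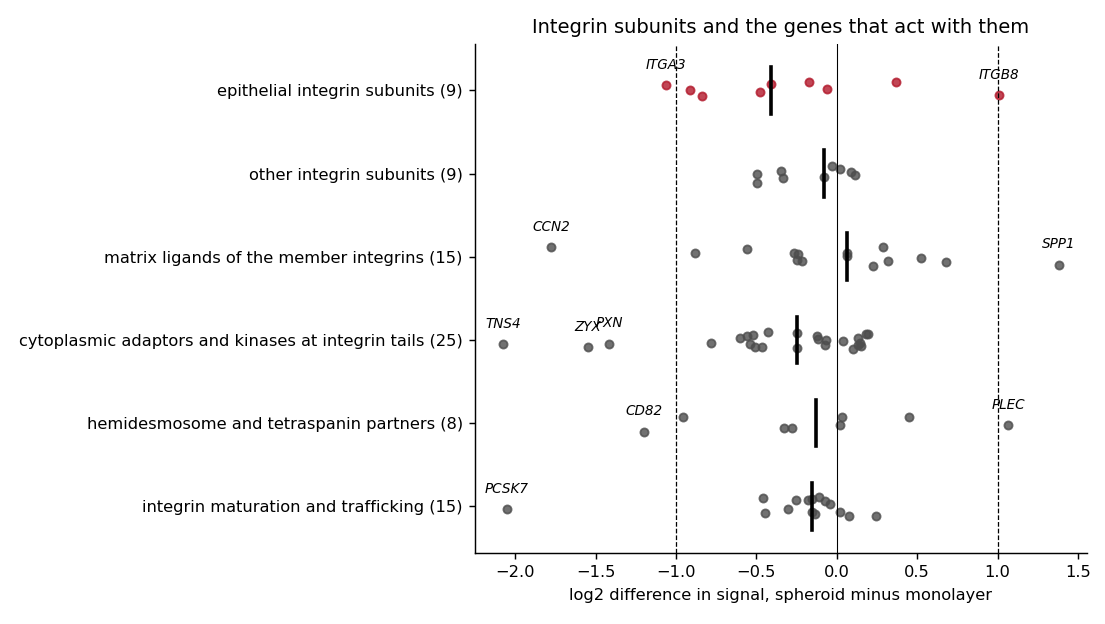
Log2 difference, spheroid minus monolayer, of the 9 measured integrin genes (red) and of measured genes in 5 lists of genes that act with them (grey), with the number of genes in parentheses, black bars for medians and dashed lines at 2-fold. Genes at least 2-fold different are named, among them TNS4, ZYX and PXN on the left of the adaptor list.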

How the data were processed

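Total RNA of HT-29 spheroids and monolayer was labelled by the authors with a 3' in vitro transcription kit and hybridised to Affymetrix Human Genome U133 Plus 2.0 arrays. The deposited values are MAS5 signals made in Affymetrix Expression Console (version not given in the sources used here), an intensity per probe set on a linear scale. With 2% of probe sets trimmed at each end, the mean was 499.9 on both arrays. No detection calls were used. Duplicates are described in the methods. Here 1 array per condition was used, and precision is limited by that number.

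Probe sets were named through the platform annotation, with symbols updated by gene number from RefSeq (GRCh38.p14). Of them 41097 have 1 gene, 1801 several, which named no gene, and 11777 stayed unnamed. Signals were floored, log2 transformed and subtracted in Python 3.11.15 with numpy 2.4.6, pandas 2.3.3 and matplotlib 3.10.9, and the computation was tested on simulated data. Where 1 array was under the floor the difference is a bound, and where both were there is none. Promoter windows are from RefSeq, and ITGA3 and ITGB4 have no entry. The members and lists were chosen with earlier results of these arrays known. All members are named, and of each of the 5 lists of genes that act with integrins the genes past 2-fold and up to 3 others with the largest difference, with some more named for their role after their values were seen. Alternatives were other scalings, floors, a pseudocount, other choices of probe set and other fold thresholds.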

Additional observations from a re-analysis of the deposited data

How the results depend on the processing

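The median over the integrin genes stayed under 0 in 10 of 10 alternatives, from -0.48 with the arrays scaled to their medians and by the most different probe set of each gene to -0.16 with the spike-ins as the scale. The number of integrin genes at least 2-fold higher, 1 as reported, was 0 with the arrays scaled to their medians, after quantile normalization, with GAPDH as the scale, with a pseudocount of 15.9, with the floor at the 75th percentile (386.0), where ITGB8 and ITGA5 were not measured, and at a 3-fold threshold. The number at least 2-fold lower, also 1, was 0 with the spike-ins as the scale, where ITGA3 was at -0.82, with the floor at the 75th percentile, where its spheroid signal was raised to the floor, and at 3-fold, and it was 3 at 1.5-fold. ITGA3 stayed past 2-fold in 8 of 10 alternatives and ITGB8 in 5 of the 9 that measured it. These counts include alternatives that had to return the reported value, since each gene has 1 probe set above the floor. They are those with no floor, with the floor of 89.2 from olfactory receptors and with other choices of probe set. Of the rest, only the spike-in scaling kept ITGB8 past 2-fold, at 1.25. ITGA3 stayed past it with the median, quantile and GAPDH scalings and the pseudocount, from -1.14 to -1.02. No paired analysis was possible because each group has 1 array, and no replicate could be left out for the same reason.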
